A study of Mus musculus with 21 samples.

Results

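Disease-associated microglia are phagocytic microglia that gather at amyloid plaques, damaged myelin and dying cells. As they enter this state they lower the surface receptors of resting microglia and raise genes for lipid handling, lysosomal digestion and recognition of debris, under control of the receptor Trem2 and its adaptor Tyrobp. The 8 genes described here were chosen by symbol as well-known members of that programme, and all 8 were found among the 22040 genes that the deposited tables list together. Clec7a (the receptor Dectin-1), Itgax (the integrin CD11c) and Axl (a receptor kinase for dying cells) act at the cell surface. Gpnmb encodes a membrane glycoprotein of lysosome-rich phagocytes, and Spp1 encodes secreted osteopontin. Lpl (lipoprotein lipase) and Ch25h (a cholesterol hydroxylase) act on lipids, and Cst7 encodes cystatin F, an inhibitor of lysosomal cathepsins. Lpl, Axl and Spp1 are not restricted to microglia in the brain.

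Polyadenylated RNA was sequenced from 21 cultures of primary mouse cortical neurons prepared from newborn pups. WT cultures received DMSO (5) or the adiponectin receptor agonist AdipoRon (6), and Tau cultures, carrying human tau P301S cDNA under a prion promoter, received DMSO (5) or AdipoRon (5), each for 24 h. AdipoRon was at 10 μM in the treatment tags, while the protocol text of the same samples gives a millimolar unit. All cultures had been exposed to cytosine arabinoside to remove glia. Fibrils of tau, formed beforehand, were added to the Tau cultures alone, on day 7, followed by 18 days before treatment by the labels or before analysis by the study's methods, so that transgene and seeding cannot be told apart. By the study's reporting summary each animal supplied cultures to every treatment, so the AdipoRon and DMSO cultures of a genotype may share animals. The tables do not hold the depth of each culture.

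Each gene has 4 values here, which are pooled means of 2 groups on the log2 CPM scale (CPM, read counts scaled to library size). The first joins Tau DMSO and WT DMSO (10 cultures), the second Tau AdipoRon and Tau DMSO (10), the third WT AdipoRon and WT DMSO (11), and the fourth Tau AdipoRon and WT AdipoRon (11). Values per culture were not analysed here, so no SD, standard error or test accompanies any level or difference, and nothing below has a replicate check. Because each group enters 2 of the pooled means, these are not independent. Each averages 2 groups, so that a difference in 1 group is diluted in it.

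The starts of the members that differed most between pooled means, Clec7a, Spp1 and Gpnmb, are shown so that their promoters can be read side by side. The sequences are the 250 bases before the RefSeq start farthest upstream (build GRCm38.p6), at chr6:129472786-129473035 on the minus strand for Clec7a, chr5:104434861-104435110 on the plus strand for Spp1 and chr6:49036268-49036517 on the plus strand for Gpnmb. Capitals mark GAGGAA, the core letters bound by the myeloid factor PU.1.
Clec7a: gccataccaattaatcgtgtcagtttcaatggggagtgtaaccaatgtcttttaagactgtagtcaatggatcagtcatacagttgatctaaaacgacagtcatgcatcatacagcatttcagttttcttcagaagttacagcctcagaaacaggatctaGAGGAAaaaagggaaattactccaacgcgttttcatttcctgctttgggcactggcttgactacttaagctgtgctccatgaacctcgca
Spp1: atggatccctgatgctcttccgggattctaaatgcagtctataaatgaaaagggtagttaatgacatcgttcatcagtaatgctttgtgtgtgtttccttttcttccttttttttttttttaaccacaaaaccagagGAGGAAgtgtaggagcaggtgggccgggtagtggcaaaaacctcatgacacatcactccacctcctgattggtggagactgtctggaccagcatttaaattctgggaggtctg
Gpnmb: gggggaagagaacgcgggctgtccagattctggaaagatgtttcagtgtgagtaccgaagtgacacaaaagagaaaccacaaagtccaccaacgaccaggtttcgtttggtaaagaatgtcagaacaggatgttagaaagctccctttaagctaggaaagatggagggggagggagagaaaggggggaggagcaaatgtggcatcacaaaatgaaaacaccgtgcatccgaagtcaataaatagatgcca

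GAGGAA or its reverse complement was in the upstream windows of Clec7a, Spp1 and Axl, that is 3 of the 7 members with an entry, and in 23.1% of 27025 promoters of the same length. The AP-1 letters TGACTCA were found on either strand in Itgax alone of the 7, against 4.43% of promoters. CACGTG, read by the lysosomal MiT/TFE factors, was in 0 of the 7 and in 6.04% of promoters. These motifs do not overlap each other, and a match is a description of the letters, not of binding.

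In these cultures labelled as neurons, 7 members had a value in all 4 pooled means. Cst7 had values only in both pooled means that include WT AdipoRon, and its other values were not analysed here. Per kilobase of canonical transcript, averaged over the pooled means, Spp1 (133 CPM per kb) and Gpnmb (125) were the most abundant members. Spp1 exceeded Gpnmb by 0.09 on the log2 CPM per kb scale, and by 0.27 when coding length was used. Clec7a followed at 40.6 CPM per kb, Axl at 25.4 and Lpl at 12.99. Itgax (1.07 CPM per kb), Cst7 (0.904) and Ch25h (0.314) were scarce. Per kilobase of coding length, Cst7 (1.12 log2 CPM per kb) came above Itgax (0.32), the reverse of their order by transcript length. Neighbours in this order could not be separated by a spread over cultures.

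**Figure D1:**
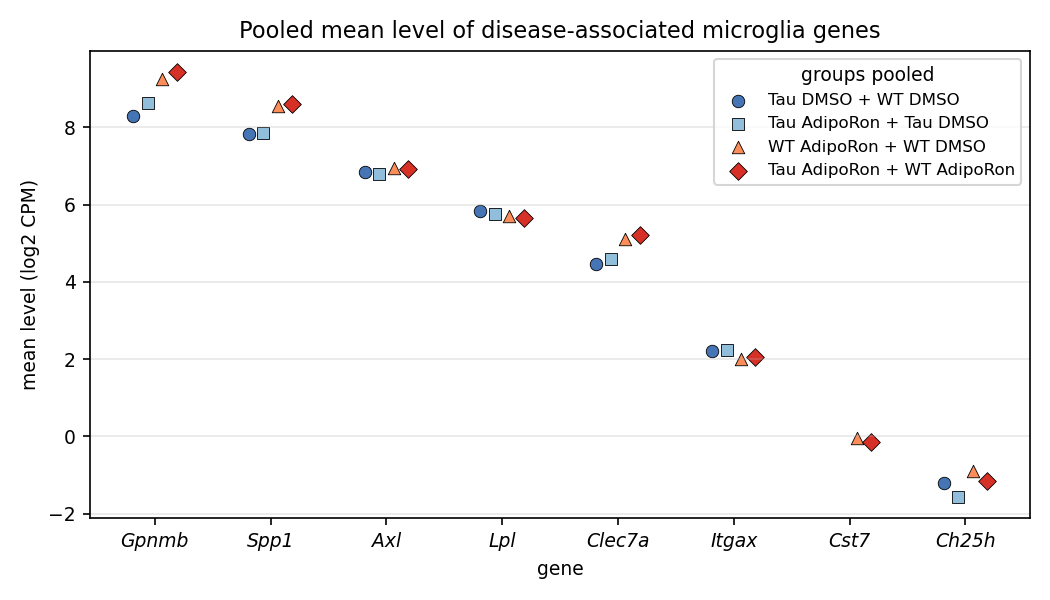
Pooled mean level (log2 CPM, vertical axis) of each of the 8 members (horizontal axis, ordered by mean level), with 1 point for each pooled mean and the groups it joins in the legend. Gpnmb runs from 8.30 to 9.43, both pooled means with WT AdipoRon lying above both others, while Lpl stays between 5.65 and 5.83 and Cst7 has 2 points. Values are not corrected for length.

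Gpnmb showed the widest spread of the members. Its pooled mean was 8.30 log2 CPM for Tau DMSO with WT DMSO, 8.64 for Tau AdipoRon with Tau DMSO, 9.25 for WT AdipoRon with WT DMSO and 9.43 for Tau AdipoRon with WT AdipoRon. Both values that include WT AdipoRon were the higher ones, by a mean of 0.87 on the log2 scale. The range of 1.13 was wider than that of 97.8% of the 19399 genes with all 4 values, whose median range was 0.20.

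Spp1 had 7.83 and 7.86 log2 CPM in the pooled means without WT AdipoRon, and 8.56 and 8.60 in those with it. These pairs did not overlap and lay 0.74 apart on the log2 scale. Clec7a, in the same order, had 4.46, 4.59, 5.12 and 5.21 log2 CPM, a difference of 0.64. All 3 genes lay near the upper end of this difference among all genes, above 99.7% of genes for Gpnmb, 99.4% for Spp1 and 99.0% for Clec7a.

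The other members had smaller differences or very low levels. Axl had 6.84 and 6.80 log2 CPM without WT AdipoRon and 6.96 and 6.93 with it, a difference of 0.13. Ch25h had -1.19, -1.56, -0.91 and -1.14 log2 CPM, so its pairs were apart by a gap of only 0.05, at a level under 1 CPM. The remaining pair lay the other way. Itgax had 2.22 and 2.25 log2 CPM without WT AdipoRon and 2.01 and 2.05 with it (a difference of -0.20), and Lpl had 5.83, 5.76, 5.72 and 5.65 (-0.11). Cst7, at -0.04 and -0.15 log2 CPM, could be compared with no pooled mean that lacks WT AdipoRon.

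In all, 5 of the 7 members with 4 values were higher in both pooled means with WT AdipoRon than in both without, a pattern that 33.4% of all genes shared. The opposite pattern was seen in 2 of the 7 and in 27.6% of all genes. Requiring a gap of at least 0.1 left 3 members (Gpnmb, Spp1 and Clec7a), against 12.1% of genes. Nearly all genes with neither pattern were separated when the pooled means were paired the second way, described below. Such a pattern thus tells which of the 2 differences is the larger in a gene, and is no sign that cultures were alike. The pooled means without WT AdipoRon are the same ones that contain Tau DMSO, so a high level in WT AdipoRon and a low level in Tau DMSO cannot be told apart. Although the study crossed genotype with treatment, pooling 2 groups into each value joins genotype, seeding and treatment in this difference.

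The pooled means can be paired in a second way, those with Tau AdipoRon against those with WT DMSO. A gene separated in the first pairing cannot be separated in this one. All 7 members were separated in the first, so that none could be here and their count has no meaning of its own. Of all genes, 22.1% were higher in both pooled means with Tau AdipoRon and 16.8% in both with WT DMSO. The differences were 0.26 on the log2 scale for Gpnmb, 0.11 for Clec7a, 0.03 for Spp1 and Itgax, -0.03 for Axl, -0.06 for Lpl and -0.30 for Ch25h. Gpnmb lay above 94.3% of genes and Ch25h above 5.11%. Over all genes the median of this difference was 0.01, and that of the first pairing 0.02.

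**Figure D2:**
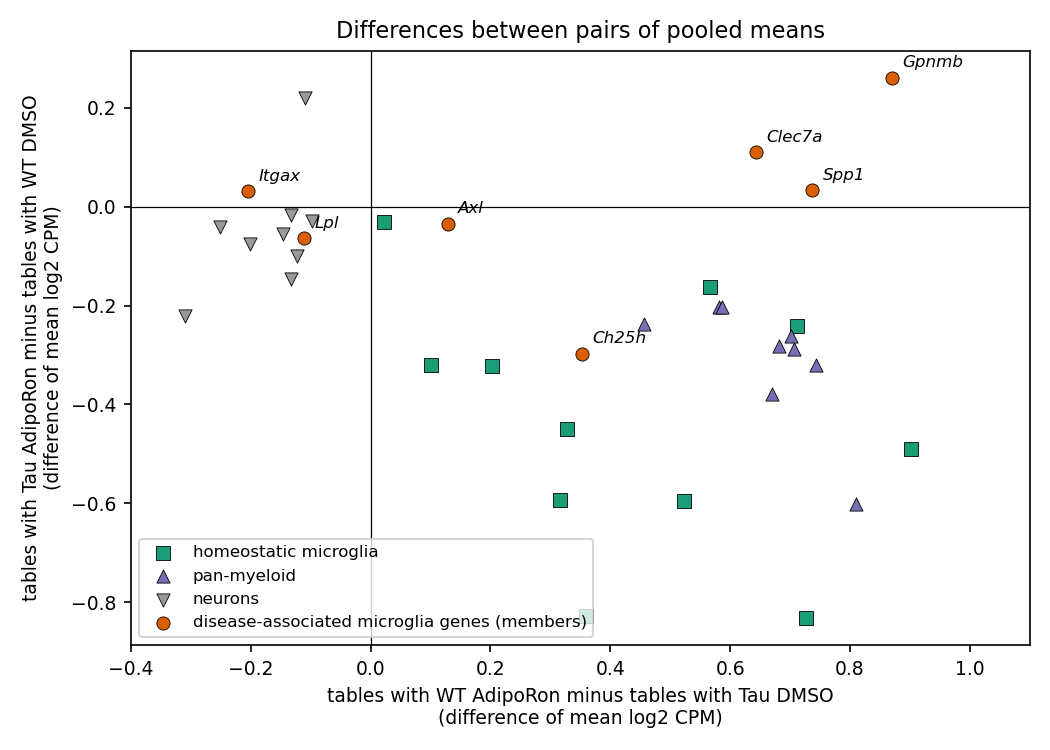
Differences between pairs of pooled means (log2 CPM), with WT AdipoRon minus Tau DMSO on the horizontal axis and Tau AdipoRon minus WT DMSO on the vertical axis, for 7 members and for marker genes of resting microglia, all myeloid cells and neurons. Gpnmb, Spp1 and Clec7a lie to the right between 0.64 and 0.87 and at or above 0 vertically, while all 9 pan-myeloid genes lie to the right and below 0.

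Pan-myeloid markers, which microglia share with other myeloid cells, were on the same side of the first difference as Gpnmb, Spp1 and Clec7a. All 9 pan-myeloid genes (among them Aif1, Spi1, which encodes PU.1, and the complement genes C1qa, C1qb and C1qc) were higher in both pooled means with WT AdipoRon. This held for 33.4% of all genes. The 9 differed by 0.46 to 0.81 on the log2 scale (median 0.68). Their summed level was 8.71 and 8.32 log2 CPM without WT AdipoRon and 9.28 and 9.07 with it. The summed level of the members was 9.53 and 9.69 without it and 10.2 and 10.3 with it. In bulk RNA, more cells of a type and more RNA per cell cannot be told apart, and the part of microglial content in the members' differences was not tested.

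Genes of resting microglia were less uniform in the pairing that separated them. Of 12 listed by name, 11 were measured and Siglech was not analysed here. All 11 had a first difference above 0, from 0.02 to 0.90 on the log2 scale with a median of 0.36. That median was 0.35 for the members and 0.02 over all genes. Of the 11, 3 were higher in both pooled means with WT AdipoRon, against 33.4% of all genes. The summed levels of the 11 did not overlap in this pairing, at 8.02 and 7.70 log2 CPM without WT AdipoRon and 8.35 and 8.13 with it. In the second pairing, 0 of 11 had a difference above 0 (range -0.83 to -0.03), as did 0 of 9 pan-myeloid genes (-0.60 to -0.20). Of the 11 resting genes, 8 were higher in both pooled means with WT DMSO, against 16.8% of all genes. These 8 could thus not be separated in the first pairing. The lowest of the resting genes was Gpr34 (mean 1.11 log2 CPM).

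Levels of the members were next set against the median pan-myeloid gene of the same pooled mean, a scale chosen after the values had been seen. Gpnmb lay 4.98 and 4.92 log2 units above that median in the pooled means with Tau AdipoRon, and 4.21 and 4.52 above it in those with WT DMSO. Spp1 lay 4.20 and 4.09 above it with Tau AdipoRon and 3.74 and 3.84 with WT DMSO. For Clec7a these values were 0.93 and 0.70 with Tau AdipoRon, and 0.37 and 0.39 with WT DMSO. On this relative scale the pairs of these 3 genes were apart, as in 6.39% of all genes, whereas on the log2 CPM scale they overlapped. Subtracting the median adds the same 0.32 to this difference for every gene, and takes the same 0.74 off the first difference. Both shifts decide which pairing separates, so that the separation belongs to the scale and has no test. In the first pairing the pairs of these 3 genes overlapped on the relative scale. Axl, Itgax, Lpl and Ch25h were lower on it in both pooled means with WT AdipoRon than in both without. Axl stood at 2.75, 3.14, 2.23 and 2.42 in the order of the pooled means given above, with overlapping pairs in the second pairing. Itgax, at -1.86, -1.41, -2.71 and -2.46, overlapped there too, as did Lpl at 1.74, 2.10, 0.99 and 1.14. Ch25h stood between -5.65 and -5.22, its pairs overlapping as well.

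A wider list of 25 genes raised in disease-associated microglia was measured in full. Of these, 19 were higher in both pooled means with WT AdipoRon, against 33.4% of all genes. The median difference of the list was 0.36 on the log2 scale. Only 1, the hypoxia factor Hif1a, was higher in both with Tau DMSO (27.6% of all genes), by a gap of 0.004, so that it was nearly level. Its most abundant gene was Fth1, the ferritin heavy chain (mean 11.9 log2 CPM), which other brain cells also make, and its least abundant was Gpr84 (-0.03). Trem2 differed by 0.61 and Tyrobp by 0.66 in the first pairing, and by -0.20 and -0.22 in the second. Lgals3 (galectin-3) differed by 0.67 and 0.40, and Cd63, a late endosomal tetraspanin gene, by 0.54 and 0.29. Ccl6 differed by -0.08 and 0.37. Lgals3, Ccl6 and Cd63 had the highest values of the list in the second pairing. There the list had a median difference of 0.02, with 14 of 25 above 0 and a range of -0.55 to 0.40. Trem2, Tyrobp, Lgals3, Cd63, Ccl6 and Hif1a were named after their values had been seen.

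The cultures expressed neuronal markers throughout, all 9 of which were measured, with medians of 8.80 to 9.06 log2 CPM and Snap25 the highest (mean 9.97). Glial transcripts were also present. The 8 astrocyte markers had medians of 8.56 to 8.70, led by Gfap (mean 10.9), and the 8 oligodendrocyte lineage markers had medians of 6.31 to 6.84. Border macrophage markers were scarcer, with Ms4a7 the highest (4.10) and Cd163 the lowest (-1.45) of 6, and did not lie to one side. In the first pairing 3 of them were higher in both pooled means with WT AdipoRon (33.4% of all genes) and 2 in both with Tau DMSO (27.6%). Differences ran from -2.04 for Lyve1 (named after its values had been seen) to 0.61 for Ms4a7. Lyve1 was not among those 2, and was higher in both pooled means with WT DMSO, with a difference of -2.11 in the second pairing.

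**Figure D3:**
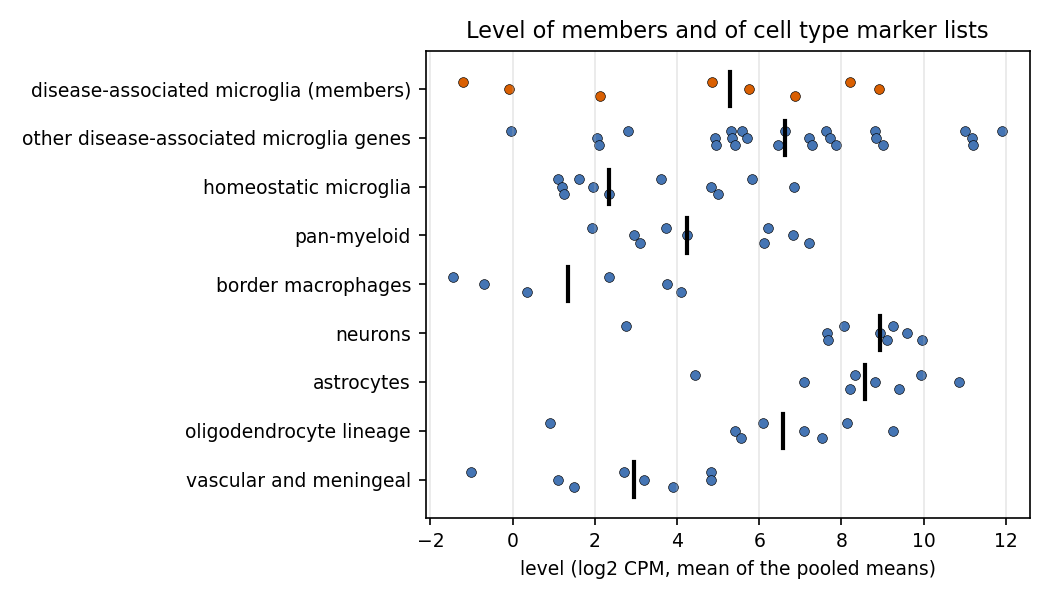
Level of each gene (log2 CPM averaged over its pooled means, horizontal axis) for the members and for each list of marker genes (vertical axis), with a black bar at the median of each list. Neuronal and astrocyte markers centre at 8.95 and 8.57, pan-myeloid genes at 4.24 and resting microglia genes at 2.36, while the members run from -1.20 for Ch25h to 8.90 for Gpnmb. Values are not corrected for length.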

How the data were processed

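RNA sequencing of primary cortical neurons gave 4 deposited tables, each comparing 2 of the 4 groups. Per the submitters' processing notes and the study's methods, STAR aligned the reads to mm10, RSEM gave the counts and edgeR the models. The results text of the study names GRCm39, and the tables are named after Rsubread. The mean level of each gene is a log2 CPM value deposited by the authors, pooled over both groups of a table. The back-transformed values sum to between 1001330 and 1002090 per table, so that they are logs of mean CPM and cultures with high counts weigh most. How libraries were normalized and genes filtered is not given in the sources used here, and the tables list 19811 to 21378 genes. The other columns hold the authors' fold changes, likelihood ratios, p-values, false discovery rates and calls, and were not used. Samples were grouped by title.

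Members and lists were matched by symbol, and both were chosen with earlier results of these data known. Named genes were all members, the highest and lowest gene of each list and defining genes with no value, and further genes were picked with their values known. The highest gene of the resting microglia list is not reported here. Pooled means were compared as differences (Python 3.11.15, pandas 2.3.3), with the 19399 genes in all 4 tables as background, in code checked on simulated data. Lengths are those of canonical transcripts in GENCODE (GRCm39), since RefSeq lengths were not used, and promoters are from RefSeq.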

Additional observations from a re-analysis of the deposited data

How the results depend on the processing

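No paired analysis was possible because the tables hold no value per culture, although cultures may share animals, and for the same reason no replicate was left out. Coding length from RefSeq proteins was not run. The share of all genes below a member in mean CPM (not per length) was 27.7% for Cst7, 66.0% for Clec7a, 41.5% for Itgax, 78.0% for Lpl, 97.9% for Spp1, 99.1% for Gpnmb, 90.9% for Axl and 17.2% for Ch25h. Among genes with a RefSeq protein these shares became, in that order, 13.1%, 54.8%, 24.2%, 70.7%, 97.3%, 98.8%, 87.9% and 7.45%. Among genes listed in all 4 tables they were 61.4% for Clec7a, 33.5% for Itgax, 75.0% for Lpl, 97.6% for Spp1, 89.7% for Axl and 6.34% for Ch25h, with Gpnmb at 99.0%. Against genes within 1 log2 unit of its level, the share with a smaller range was 96.9% for Clec7a, 45.5% for Itgax, 61.9% for Lpl, 97.7% for Spp1, 99.4% for Gpnmb, 59.0% for Axl and 84.0% for Ch25h. Per kilobase of coding length, an alternative chosen after seeing the data, levels were 1.12 log2 CPM per kb for Cst7, 0.32 for Itgax, 5.23 for Lpl, 8.39 for Spp1, 8.12 for Gpnmb and 5.47 for Axl. Of 7 members, 5 were higher with WT AdipoRon in the main comparison, 3 with a gap of at least 0.1, and 4 of the 5 with a log2 CPM over 4 (37.5% of genes at that level), both chosen after seeing the data. Of the same 7, 0 were higher with Tau AdipoRon on the log2 CPM scale, a count fixed by their separation in the first pairing. Relative to the median pan-myeloid gene, a scale also chosen after seeing the data, 3 were higher. The lists share no genes, so their medians did not move.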

Other observations

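Oligodendrocyte lineage genes lay to one side in the second pairing. All 8 markers had lower pooled means with Tau AdipoRon than with WT DMSO, with differences from -0.81 to -0.22 on the log2 scale. Of the 8, 5 were higher in both pooled means with WT DMSO, against 16.8% of all genes. Neuronal markers were lower with WT AdipoRon than with Tau DMSO in all 9 cases, with differences from -0.31 to -0.10. Of the 9, 7 were higher in both pooled means with Tau DMSO, against 27.6% of all genes. Of the 8 astrocyte markers, 2 were higher in both with WT AdipoRon and 2 in both with Tau DMSO, against 33.4% and 27.6% of all genes. Vascular and meningeal markers were split likewise, 3 and 3 of the 8 measured, led by the collagen gene Col1a2 (mean 4.84 log2 CPM), with Pecam1 lowest and Cldn5 not analysed here. These differences have no replicate check.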
